A study of Mus musculus with 6 samples.

Results

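Nmrk2, Nmrk1, Nampt, Nmnat1, Nmnat3, Nadk, Nadk2, Nnt, Nnmt and Cd38 encode enzymes that make, phosphorylate, reduce or break down the coenzymes NAD and NADP. They were chosen by name, as salvage enzymes, NAD kinases, the transhydrogenase and enzymes that use up NAD or nicotinamide, and all 10 were found among the 14133 genes of the deposited table. Nmrk2 was included because its RNA was known to differ between the groups. The differences between the groups are therefore given for these genes as a description, without a test. The mice were C57BL/6, and heart RNA was taken when they were 1 month old. All mice carried floxed alleles of the thioredoxin-1 gene (Trx1 flox/flox, gene symbol Txn1), and 3 libraries without Cre served as controls (replicates 3, 4 and 5). The 3 others carried the MHC-Cre transgene as well (Trx1 flox/flox/MHC-Cre, replicates 6, 7 and 8), in which the Myh6 promoter drives Cre recombinase in cardiomyocytes. No group had Cre without the floxed alleles, so effects of the transgene itself and of the deletion cannot be told apart.

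NAD carries electrons from fuels to the respiratory chain, and NADP, its phosphorylated form, supplies reducing power to the thioredoxin and glutathione systems. Cells that use NAD as a substrate release nicotinamide, which NAMPT turns back into nicotinamide mononucleotide (NMN). Nicotinamide riboside kinases reach the same NMN from the vitamin nicotinamide riboside, and the NMNAT enzymes complete NAD. Heart muscle relies mainly on NAMPT, and Nmrk2 is the kinase of striated muscle.

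Nmrk2 occupies bases 81198170 to 81202265 of chromosome 10 (GRCm38, the assembly of mm10), and Nmrk1 on chromosome 19, 18632016 to 18652428. The bases before the RefSeq transcription start of both kinase genes are shown because the levels of this isozyme pair came apart in the data. Each run holds the 250 bases upstream of the start, 5′ to 3′ on the gene's strand, from RefSeq's GRCm38.p6, chr10:81202038-81202287 (minus strand) and chr19:18631766-18632015 (plus strand). The start used for Nmrk2 lies inside the RefSeq gene span given above, so most of its window falls within that span, whereas the Nmrk1 window ends where the gene span begins. Capitals mark matches to TATAAA and to the E-box CANNTG, both read on both strands.
Nmrk2: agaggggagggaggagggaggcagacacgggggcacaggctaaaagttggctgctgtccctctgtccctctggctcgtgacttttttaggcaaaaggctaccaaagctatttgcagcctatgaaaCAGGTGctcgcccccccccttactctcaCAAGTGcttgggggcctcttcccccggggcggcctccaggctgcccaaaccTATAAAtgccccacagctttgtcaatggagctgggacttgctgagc
Nmrk1: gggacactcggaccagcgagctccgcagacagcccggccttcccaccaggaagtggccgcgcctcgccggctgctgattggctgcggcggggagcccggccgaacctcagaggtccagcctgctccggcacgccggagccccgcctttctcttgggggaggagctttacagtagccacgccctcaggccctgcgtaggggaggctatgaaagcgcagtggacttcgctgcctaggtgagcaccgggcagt
The Nmrk2 window held 1 TATAAA, which began at position -46 from the start and which 12.4% of 32851 promoter windows of this length hold, and 2 E-boxes, a motif found in 66.2% of them. The Nmrk1 window held neither, and its G and C content was 69.2% against 58.8% for Nmrk2. TGANNNNGC, looser than the core of the antioxidant response element because it allows any base after TGA, matched once in each window, on opposite strands. It occurs in 35.2% of windows. After TGA the Nmrk2 match had C, as in that core, whereas the Nmrk1 match had A and so was not the core. The CArG box of SRF (1.47% of windows), the nuclear receptor half-site AGGTCA (14%), the AP-1 site TGANTCA (6.75%), the TEAD site CATTCC (12.6%) and the ATF4 element TGATGNAA (3.45%) had no match in either window on either strand. A match describes letters only and was not tested for binding.

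The values are log2 CPM, reads scaled to library size on a log2 scale, with a small pseudocount that puts genes without reads at -3.29 in every library. Reads recovered from the steps of the values came to 8347636 to 13705281 a library. Txn1, the targeted gene, was not lower in the libraries with Cre (6.99 ± 0.12 log2 CPM, against 6.89 ± 0.22 in the controls, SD, n = 3 each). A value for the whole gene in heart tissue does not show whether the floxed alleles were recombined in cardiomyocytes. The group with Cre is therefore called the libraries labelled knockout, and differences are given as that group minus the controls. Of the 12516 genes whose mean reached 0 log2 CPM, 9.66% passed an adjusted p under 0.05 (limma with an intensity trend, Benjamini-Hochberg). The 3 values of 1 group lay apart from those of the other in 30.7% of these genes. Replicate 8 lay nearest to the control mean in 7 of the 10 genes, so for some genes differences are also given without it. Cardiomyocyte markers summed to 134324 to 147531 CPM in the controls and, in the libraries labelled knockout, to 86610 to 115132, and fibroblast markers to 3401 to 4258 and 5444 to 9303. Of the 10 cardiomyocyte markers 4 fell and 0 rose, with log2 differences from -1.17 for Tcap to 0.05 for Tnnt2. Of the 10 fibroblast markers 5 rose and 0 fell, with 0.23 for Gsn to 2.61 for Mfap5. A sum can thus follow a few abundant genes. In RNA of the heart as a tissue, fewer cells of a type, less RNA per cell and changes of single marker genes cannot be told apart.

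All 10 genes passed the filter on low values. Nmrk2 was past the threshold of the test over all genes and the other 9 were not, beside 9.66% of all tested genes, 4.79% higher and 4.87% lower. Because the genes were chosen with this contrast known, nothing is read from that count. The groups did not overlap for Nmrk2, which lay above, and for Nmnat1, which lay below, and they overlapped for the other 8. Among all tested genes, the groups did not overlap for 30.7%. The mean was lower in the libraries labelled knockout for 7 of the 10 genes and higher for Nmrk2, Nmrk1 and Nnmt. The median log2 difference was -0.22 over the 10 genes and -0.28 without Nmrk2, beside -0.01 over all tested genes.

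**Figure D1:**
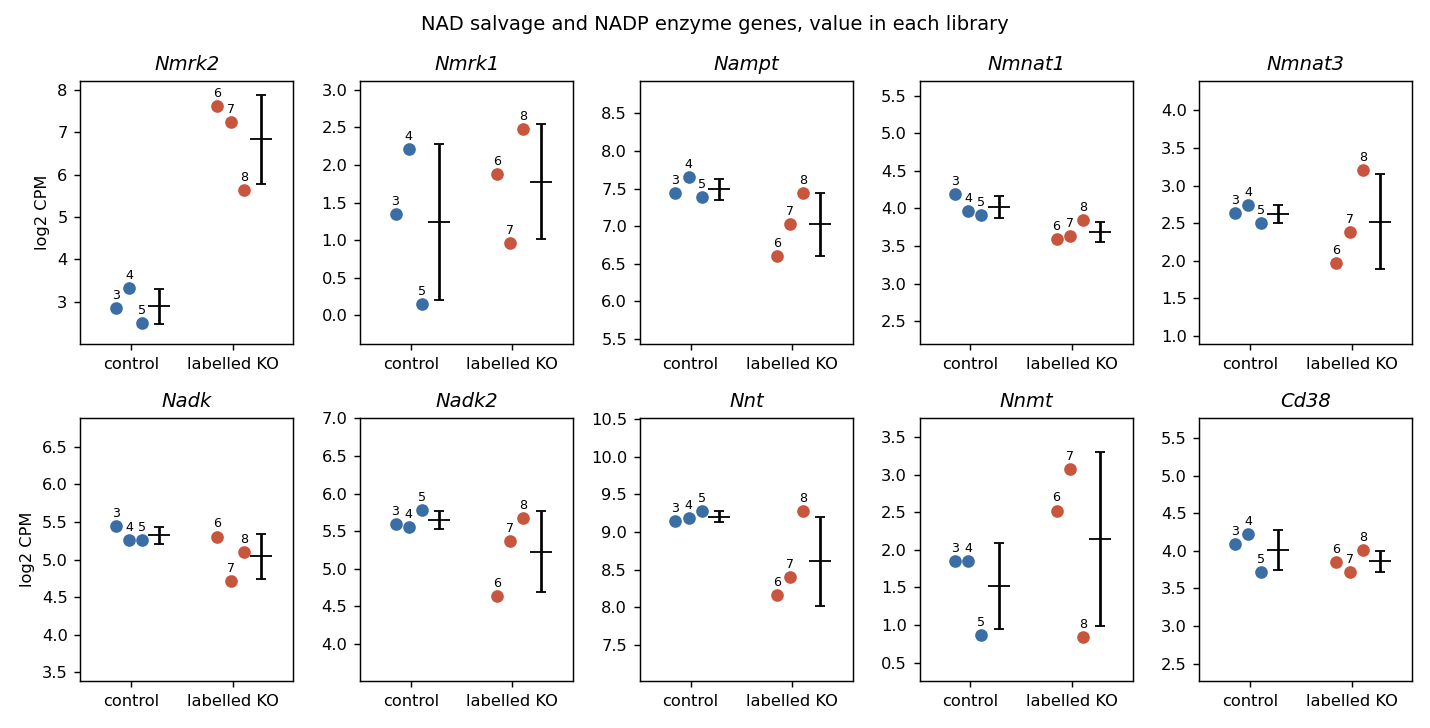
Value of each of the 10 genes in each library, in log2 CPM, with the library's replicate number above its point and bars for the group mean ± SD of 3 libraries. Nmrk2 went from 2.89 ± 0.41 to 6.83 ± 1.04, while Nnt, Nampt and Nadk2 were low in replicates 6 and 7 or in replicate 6 and at the control level in replicate 8.

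Nmrk2 makes NMN from nicotinamide riboside and is also known as a muscle protein that binds integrin. Control replicates 3, 4 and 5 held it at 2.85, 3.32 and 2.50 log2 CPM, whereas replicates 6, 7 and 8 held it at 7.61, 7.23 and 5.65 log2 CPM. All 3 libraries labelled knockout lay above every control, and replicate 8 was the lowest of them. On average the log2 difference was 3.94 ± 0.40 (SE), 15.3-fold, and it ranked 16 from the top among 12516 genes. Without replicate 8 the log2 difference was 4.53, 23.1-fold, and with any 1 library left out it was 3.55 to 4.53.

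Behind these values stood 96, 89 and 55 reads in the controls and 1898, 1539 and 429 in replicates 6, 7 and 8. The exact Poisson 95% interval, which covers counting error only, was 7.94 to 12.2 CPM for the highest control and 45.4 to 55.0 CPM for replicate 8, the lowest of the other group. The 3 libraries labelled knockout differed from each other by far more than counting error, with a variance of reads 366 times that of counting, against 6.09 times among the controls. An antisense gene, Atcayos, overlaps Nmrk2 in the GENCODE annotation. No source used here describes how strand was treated in counting, so reads of the overlapping genes cannot be told apart.

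Nmrk2 RNA is abundant in skeletal muscle, and markers of that tissue were read beside it. Of 10 listed markers 9 were in the table. Myh2 was not among them, 4 passed the filter on low values, of which 1 rose and 1 fell, and 0 were without reads in all 6 libraries. The summed level of the 9 was 4180 to 4459 CPM in the controls and 1702 to 3191 CPM in the libraries labelled knockout, nearly all of it Ckm, the muscle creatine kinase that heart also makes, which fell by 0.98 on the log2 scale (limma, p adjusted to 0.0131). Without Ckm the other 8 summed to 8.28 to 11.2 and 6.32 to 15.8 CPM, ranges that overlap, while Nmrk2 alone went from at most 9.89 to at least 50.01 CPM. Myh4, which encodes a fast skeletal myosin, was without reads or under 2 log2 CPM in every library. Tnnt3, the fast skeletal troponin T gene, rose from 0.21, -2.23 and -0.72 to 2.67, 2.11 and 1.81 log2 CPM (adjusted p = 0.0167, limma). Tnni2, the fast skeletal troponin I gene, went the other way without passing the test (limma adjusted p = 0.0507). It was at 2.32, 1.91 and 2.09 log2 CPM in the controls and at 1.17, -0.18 and -0.32 in replicates 6, 7 and 8.

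Nmrk1, the widely expressed nicotinamide riboside kinase, was low in all libraries. Its level was 1.35, 2.22 and 0.15 log2 CPM in the controls and 1.89, 0.97 and 2.48 log2 CPM in replicates 6, 7 and 8. The groups overlapped, although replicate 8 lay above every control and control replicate 5 below every other library. Nmrk1 had a mean log2 difference of 0.54 ± 0.60 (SE), which ranged from -0.0061 without control replicate 5, the library with 10 reads, to 1.03 without control replicate 4. That library's exact Poisson 95% interval was 0.485 to 1.86 CPM, so counting error alone spans a wide range here.

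Nmrk2 was the more abundant kinase RNA per transcript length in every library. In control replicates 3, 4 and 5 the level of Nmrk2 was 3.04, 2.27 and 5.76 times that of Nmrk1, in CPM per kilobase. In replicates 6, 7 and 8 it was 56.7, 84.8 and 9.55 times that of Nmrk1. The ratio was higher in all 3 libraries labelled knockout than in any control, and control replicate 5 and replicate 8 came nearest to each other. Both kinases together amounted to 10.2 ± 3.97 CPM in the controls and 135 ± 72.9 CPM in the libraries labelled knockout (SD, n = 3 each).

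Nampt, which encodes the rate-limiting enzyme of nicotinamide salvage, was read at 7.44, 7.65 and 7.39 log2 CPM in the controls. It stood at 6.61, 7.03 and 7.44 log2 CPM in replicates 6, 7 and 8. Replicates 6 and 7 lay below every control and replicate 8 lay between the controls. For Nampt the mean log2 difference was -0.47 ± 0.19 (SE), with -0.68 when replicate 8 was left out and -0.26 when replicate 6 was left out. At 950 to 2341 reads a library, counting error was small beside this spread. Gdap10, a long noncoding gene, overlaps Nampt in the annotation.

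The order of Nampt and Nmrk2 per transcript length changed between groups. In the controls Nampt stood at 38.3, 44.4 and 37.0 CPM per kilobase and Nmrk2 at 3.84, 5.33 and 3.00. In replicates 6, 7 and 8 Nampt stood at 21.5, 28.8 and 38.2 CPM per kilobase and Nmrk2 at 105, 81.1 and 27.0. Nmrk2 RNA was thus 4.88 and 2.82 times Nampt RNA in replicates 6 and 7, and 0.705 times in replicate 8, against 0.0811 to 0.120 times in the controls. These are ratios of RNA and say nothing of enzyme amounts or flux.

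**Figure D2:**
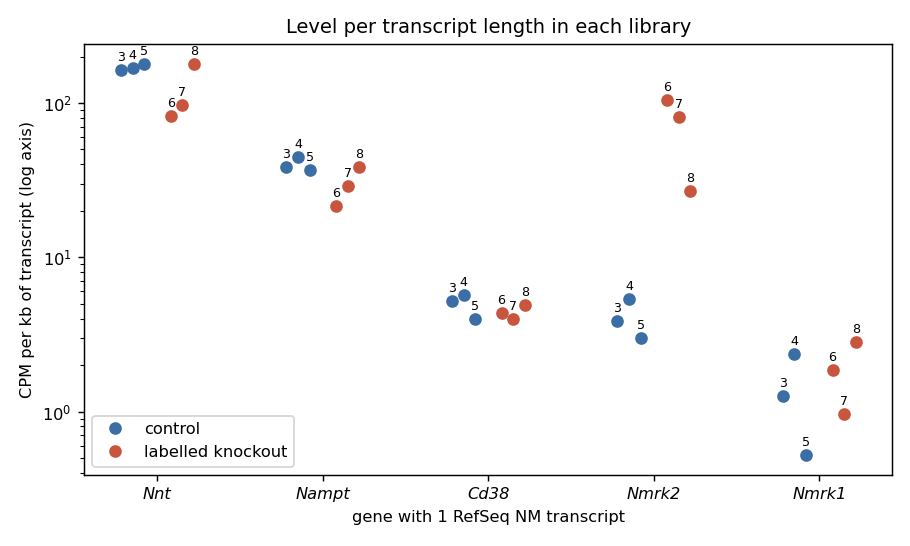
Level per transcript length, in CPM per kilobase on a log axis, of the 5 genes with 1 RefSeq NM transcript, with each library's replicate number above its point. In the controls Nnt lay highest and Nmrk1 lowest, and Nmrk2 moved from the range of Cd38 to that of Nampt or above.

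Among these 5 genes with 1 RefSeq NM transcript, whose values can be compared per length, the control order was Nnt (170 ± 8.70 CPM per kilobase, SD, n = 3), Nampt (39.9 ± 3.97), Cd38 (4.94 ± 0.865), Nmrk2 (4.06 ± 1.18) and Nmrk1 (1.38 ± 0.919). Cd38 and Nmrk2 overlapped, and the other neighbours in this order did not. In the libraries labelled knockout the order by mean was Nnt (120 ± 52.1), Nmrk2 (71.04 ± 40.002), Nampt (29.5 ± 8.38), Cd38 (4.42 ± 0.443) and Nmrk1 (1.88 ± 0.934). There Nmrk2 overlapped both Nnt and Nampt. The 5 other genes have more than 1 NM transcript, over which the deposited value is an average, so their levels are not ranked with these.

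The NMNAT enzymes join NMN to ATP to form NAD, Nmnat1 in the nucleus and Nmnat3 in mitochondria. Nmnat1 was at 4.19, 3.97 and 3.91 log2 CPM in the controls and at 3.60, 3.63 and 3.84 log2 CPM in replicates 6, 7 and 8. Every library labelled knockout lay below every control, although the gap between replicate 8 and control replicate 5 was small, and 16.2% of all tested genes separated in this direction. Nmnat1 had a mean log2 difference of -0.33 ± 0.22 (SE), and Tmem274 overlaps it on the other strand. At 117 to 245 reads a library the intervals of neighbouring libraries overlapped, 12.6 to 17.6 CPM in control replicate 5 and 11.8 to 17.0 CPM in replicate 8.

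Nmnat3 was at 2.63, 2.74 and 2.50 log2 CPM in the controls and at 1.97, 2.38 and 3.21 log2 CPM in replicates 6, 7 and 8. The controls were close together, replicates 6 and 7 lay below them and replicate 8 above. Nmnat3 had a mean log2 difference of -0.11 ± 0.37 (SE), with -0.45 when replicate 8 was dropped and 0.17 when replicate 6 was left out. The sign of this difference therefore rested on 1 library.

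NAD kinases make NADP from NAD, Nadk in the cytosol and Nadk2 in mitochondria. Nadk was at 5.45, 5.26 and 5.26 log2 CPM in the controls and at 5.31, 4.72 and 5.10 log2 CPM in replicates 6, 7 and 8. Replicate 6 fell within the controls and replicates 7 and 8 below them. For Nadk the mean log2 difference was -0.28 ± 0.19 (SE), and -0.12 without replicate 7.

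Nadk2 was at 5.59, 5.56 and 5.78 log2 CPM in the controls and at 4.63, 5.37 and 5.68 log2 CPM in replicates 6, 7 and 8. Replicate 6 stood 1.01 log2 units below the control mean, replicate 7 stood 0.273 below it, and replicate 8 lay within the controls. For Nadk2 the mean log2 difference was -0.42 ± 0.23 (SE), and it was -0.12 without replicate 6 and -0.64 without replicate 8. The kinases of the cytosol and of mitochondria were thus lowest in different libraries, Nadk in replicate 7 and Nadk2 in replicate 6.

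Nnt encodes the transhydrogenase of the inner mitochondrial membrane, which uses the proton gradient to pass electrons from NADH to NADP. It lies on chromosome 13, 119335527 to 119409257. The substrain C57BL/6J is known for a deletion within Nnt that other C57BL/6 substrains lack, and the labels give C57BL/6 without a substrain. A value for the whole gene does not show which allele the mice carried. Nnt was at 9.14, 9.18 and 9.28 log2 CPM in the controls and at 8.16, 8.40 and 9.28 log2 CPM in replicates 6, 7 and 8. Replicates 6 and 7 lay far below the narrow range of the controls, and replicate 8 lay inside it.

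Averaged over libraries, Nnt differed by -0.59 ± 0.23 on the log2 scale (SE), and without replicate 8 it was -0.93, or 0.526 times the control level. Without replicate 6 it was -0.36. Counting error was small, with 285 CPM (exact Poisson 95% interval 275 to 296) in replicate 6 and 621 CPM (604 to 638) in replicate 8. The variance of reads in the libraries labelled knockout was 724 times that of counting, the highest value among the 10 genes. Its SD in the libraries labelled knockout was 8.09 times that in the controls. The summed cardiomyocyte markers were also highest in replicate 8 of its group, although Tnnt2 and Ryr2 were highest in replicate 7, and Tcap and Mybpc3 were lowest in replicate 8. Their part in the Nnt values was not tested.

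Tested genes near Nnt on both sides were read as well. On one side, Mrps30, a mitochondrial ribosome gene, had a log2 difference of -0.47 ± 0.14 (SE, limma adjusted p = 0.0594). On the other side, Paip1, which encodes a partner of the poly(A)-binding protein, had -0.16 ± 0.15 (adjusted p = 0.547), and Hmgcs1, a cholesterol synthesis gene, had -0.03 ± 0.15 (adjusted p = 0.944). Emb and 4833420G17Rik, also near Nnt, had 0.58 ± 0.61 and 0.04 ± 0.16 (adjusted p = 0.603 and 0.902). None of these 5 passed the test over all 6 libraries.

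**Figure D3:**
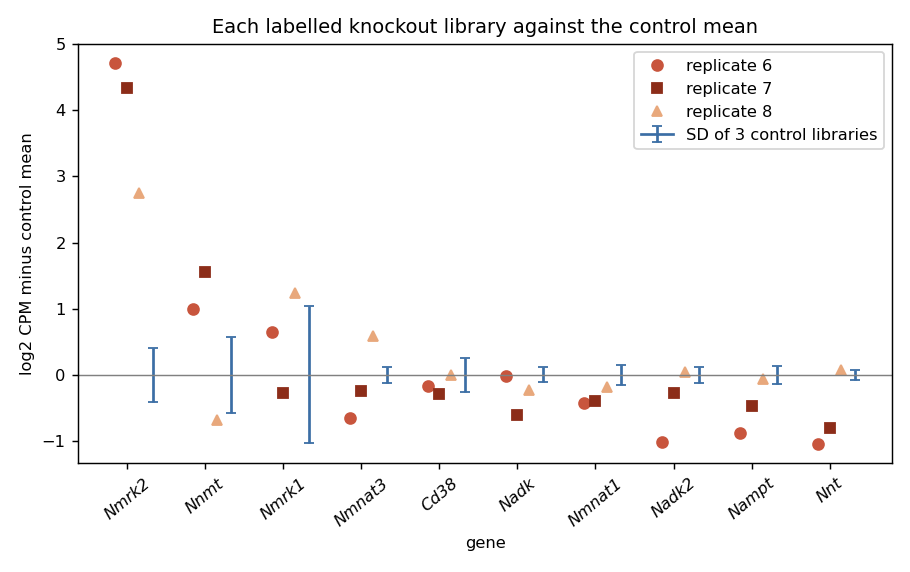
Departure of each labelled knockout library from the mean of the 3 controls, in log2 CPM, for the 10 genes ordered by their mean difference, with the SD of the controls as bars at 0. Replicate 6 (circles) stood farthest from the controls in 6 genes, and replicate 8 (triangles) stood nearest in 7.

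Nnmt and Cd38 work on the removal side. Nnmt methylates nicotinamide, which takes it out of salvage, and Cd38 is a membrane enzyme that cleaves NAD. Nnmt was at 1.86, 1.85 and 0.86 log2 CPM in the controls and at 2.52, 3.07 and 0.84 log2 CPM in replicates 6, 7 and 8. Replicates 6 and 7 lay above every control and replicate 8 lay below every control. Nnmt had a mean log2 difference of 0.62 ± 0.57 (SE), and it was 1.27 without replicate 8, 0.43 without replicate 6, 0.16 without replicate 7 and 0.29 without control replicate 5. The level rested on 14.5 to 85 reads a library.

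Nnmt is known from fibroblasts and fat. Of 10 fibroblast markers, all tested, 5 rose and 0 fell (Col1a1, Col1a2, Col3a1, Dcn and Mfap5), and their sum was 9262, 9303 and 5444 CPM in replicates 6, 7 and 8. Replicate 8 had the lowest sum of its group but one above every control, while its Nnmt was at the level of the lowest control. Among the controls the sum was lowest in replicate 4 and Nnmt in replicate 5. The adipocyte list summed to 877 to 967 CPM in the controls and 656 to 949 CPM in the libraries labelled knockout, most of it Fabp4 and Plin4, which endothelium and muscle also make. Of the 10 listed genes 9 were in the table, without Lep, and of the 4 tested 1 rose (Cidea) and 1 fell (Cfd). Ucp1, the defining gene of brown fat, was at 3.78 log2 CPM in control replicate 3, at -1.199 in control replicate 4 and without reads in the other 4 libraries. Nnmt was at nearly the same level in these 2 controls. The part of these cells in the Nnmt values was not tested.

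Cd38 was at 4.09, 4.22 and 3.72 log2 CPM in the controls and at 3.84, 3.72 and 4.01 log2 CPM in replicates 6, 7 and 8. All libraries labelled knockout lay within the range of the controls. For Cd38 the mean log2 difference was -0.15 ± 0.23 (SE), and it stayed between -0.30 and -0.04 with 1 library left out. Cd38 is best known from lymphocytes and other immune cells. Of the 10 lymphocyte markers 7 were in the table, and their sum was 53.8 to 64.5 CPM in the controls and 44.7 to 65.1 CPM in the libraries labelled knockout, ranges that overlap, with 0 of the 6 tested past the test. Of 10 macrophage markers 0 passed the test, although their sum went from 1034 to 1125 CPM in the controls to 1259 to 1436 CPM.

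The spread was larger in the libraries labelled knockout than in the controls for 7 of the 10 genes, beside 70.01% of all tested genes. The exceptions were Nmrk1, Nmnat1 and Cd38. Within the libraries labelled knockout the variance of reads was 1.01 times that of counting error for Nmnat1 and 1.36 times for Cd38, so their 3 libraries hardly differed beyond counting. It was 99.0 times for Nampt, 42.9 times for Nadk2, 18.9 times for Nnmt, 13.3 times for Nadk, 11.9 times for Nmnat3 and 8.67 times for Nmrk1.

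The 5 tested genes whose pattern over the 6 libraries lay closest to that of Nmrk2, by the root mean square difference of log2 CPM after each gene was centred on its mean, were 2200002D01Rik (0.383), Sfrp2 (0.402), Ankrd1 (0.409), Cilp (0.444) and Uchl1 (0.456). Sfrp2 encodes a secreted antagonist of Wnt signalling, Ankrd1 a stress-responsive protein of the sarcomere, Cilp a matrix protein and Uchl1 a ubiquitin hydrolase. Sfrp2 was at 2.11, 1.35 and 0.78 log2 CPM in the controls and at 6.01, 5.36 and 4.04 log2 CPM in replicates 6, 7 and 8. Ankrd1 ran at a far higher level, from 8.79, 9.03 and 8.70 to 12.5, 12.9 and 11.7 log2 CPM. Uchl1 went from 3.42, 3.32 and 2.86 to 7.37, 7.04 and 4.80 log2 CPM. Each of them, like Nmrk2, was lowest in replicate 8 among the libraries labelled knockout. The genes were picked for likeness over libraries that include the contrast, so their own differences are no separate result.

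**Figure D4:**
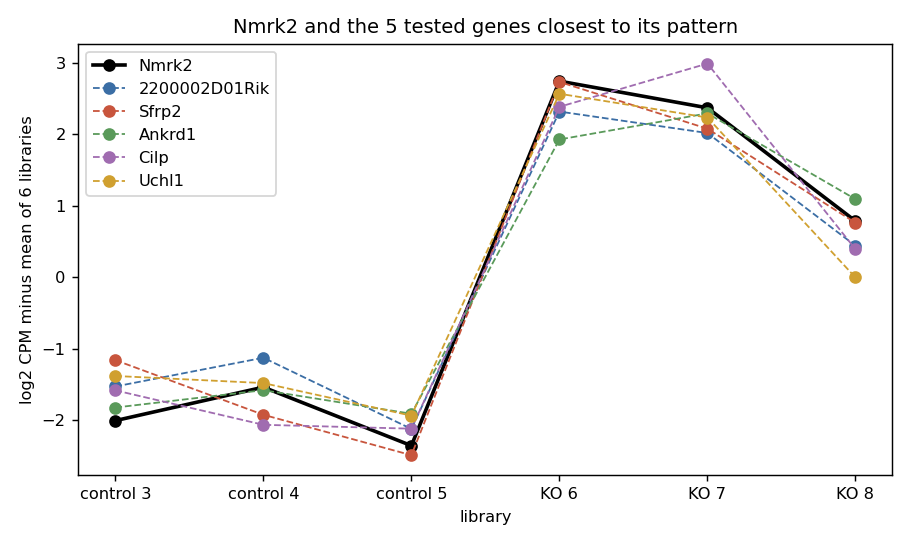
Log2 CPM minus the gene's mean over the 6 libraries, for Nmrk2 (solid line) and the 5 tested genes with the smallest root mean square difference from it (dashed lines). The 6 genes lay lower in every control than in every labelled knockout library, and replicate 8 was the lowest of the latter for each.

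Other genes of NAD metabolism were read in 8 lists, without the 10 genes above. Of 107 listed genes 100 were in the table and 89 were tested, and 9 rose and 9 fell, 20.2% in all beside 9.66% of all tested genes. The lists were chosen with earlier results of these data known, so nothing is read from that share. The groups did not overlap for 12 genes that lay above and 26 that lay below, beside 14.4% and 16.2% of all tested genes, and the median log2 difference was -0.14 beside -0.01. The count of genes past the test was 7, 4 and 5 without control replicate 3, 4 or 5, 9 without replicate 7 and 31 without replicate 8, when 17.5% of all genes passed. Replicate 8 was singled out because it lay nearest to the controls in the 10 genes, so nothing is read from calls made without it. Without a trend in the variance it was 3. Aox1 was past the test in all 16 alternative settings, and the other 17 genes lost their call in at least 1 of them. For Macrod1, Me1 and Prkab2 that was the fit without a trend alone (adjusted p = 0.0703, 0.065 and 0.0887, limma).

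**Figure D5:**
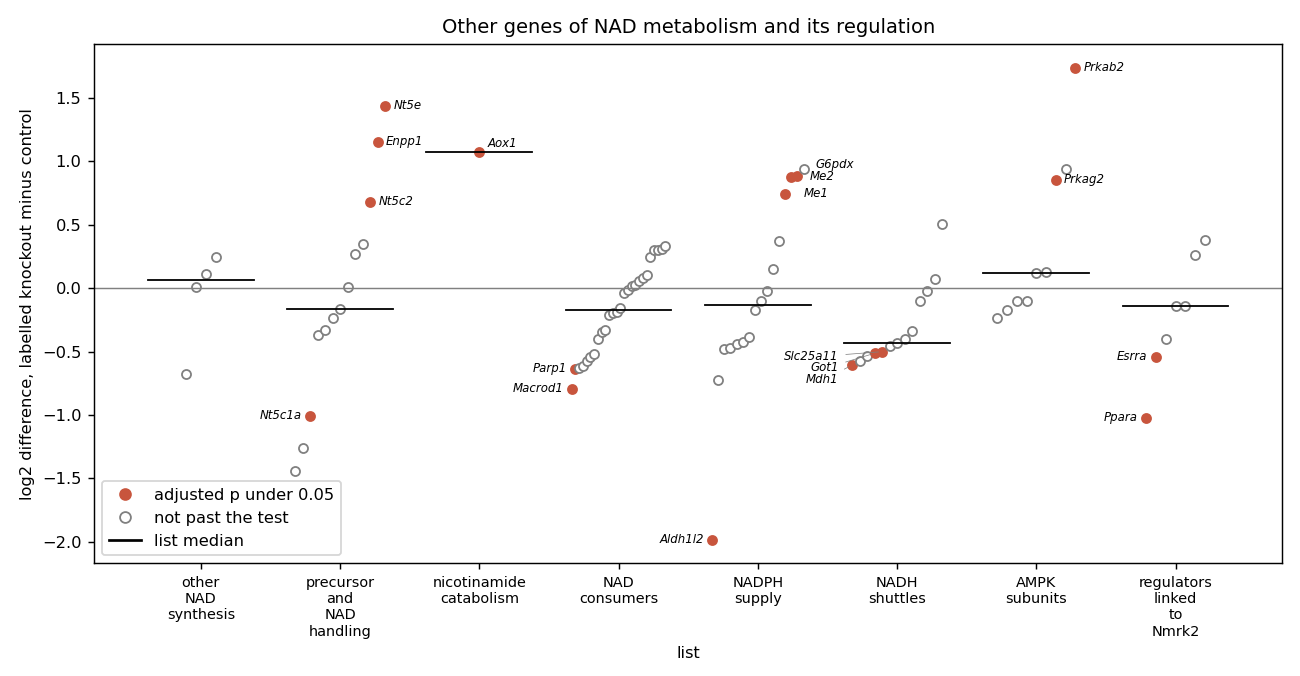
Log2 difference, labelled knockout minus control, of the 89 tested genes in 8 lists of NAD metabolism and its regulation, 1 point a gene, with filled points for an adjusted p under 0.05 and a bar for each list's median. Gains and losses were mixed in most lists, and the list of NADH shuttles, which holds 3 lactate dehydrogenase genes as well, had the lowest median, -0.44.

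In the other routes of NAD synthesis 0 genes rose or fell. Of 14 listed genes 10 were in the table and 4 passed the filter on low values. Naprt, which starts NAD synthesis from nicotinic acid, had a log2 difference of 0.01 ± 0.24 (SE, limma adjusted p = 0.987), and Pnp, a purine nucleoside phosphorylase that can split nicotinamide riboside, one of 0.25 ± 0.29 (adjusted p = 0.647). Pnp has a near-identical neighbour, Pnp2, so its reads may be split. Of the genes of the route from tryptophan, Afmid, the kynurenine formamidase gene, was tested, with a log2 difference of 0.12 ± 0.60 (SE, adjusted p = 0.933). Haao, Kynu, Kmo, Ido1 and Acmsd had means under 0 log2 CPM, and each was without reads in at least 1 library.

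Among 13 tested enzymes and carriers that handle NAD and its precursors, 3 rose and 1 fell, beside 4.79% and 4.87% of all tested genes. Nt5e, the ectonucleotidase CD73 that makes adenosine and can free nicotinamide riboside from NMN, went from 4.14, 3.92 and 3.92 to 5.25, 6.24 and 4.81 log2 CPM. Its 3 libraries labelled knockout lay above all controls, a 2.71-fold difference (adjusted p = 0.0103, limma). Enpp1, an ectonucleotide pyrophosphatase, rose 2.23-fold (adjusted p = 0.0383), and Nt5c2, a cytosolic purine nucleotidase, 1.601-fold (0.0284). Nt5c1a, the cytosolic AMP nucleotidase of muscle, fell by 1.01 log2 units (limma, adjusted p = 0.0188), from 3.997, 3.92 and 4.19 to 2.94, 3.00 and 3.13 log2 CPM. Slc29a1, the main nucleoside carrier, had a log2 difference of -0.37 ± 0.15 (SE, adjusted p = 0.14). Each of the 4 calls ended without control replicate 4 or 5, with limma adjusted p up to 0.0911, 0.144, 0.131 and 0.107 for Nt5e, Enpp1, Nt5c2 and Nt5c1a over all settings. Those of Enpp1 and Nt5c2 also ended without control replicate 3 and without replicate 6 or 7, and that of Nt5c1a without control replicate 3.

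Aox1, an aldehyde oxidase that oxidises the methylated nicotinamide made by Nnmt, rose 2.1-fold. It was at 5.14, 4.89 and 4.88 log2 CPM in the controls and at 6.13, 6.08 and 5.92 log2 CPM in replicates 6, 7 and 8 (adjusted p = 0.00192, limma). All 3 libraries labelled knockout were high, replicate 8 included. Of the 4 listed aldehyde oxidase genes 3 were in the table, and Aox2 and Aox3 did not pass the filter on low values.

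Of 26 tested genes of enzymes that consume NAD or act on ADP-ribose, 0 rose and 2 fell, 7.69% in all beside 9.66% of all tested genes. Parp1, which makes poly(ADP-ribose) at DNA breaks, fell by 0.64 log2 units (adjusted p = 0.0239), and Macrod1, which removes ADP-ribose and does not itself consume NAD, fell by 0.80 (adjusted p = 0.00409). Macrod1 went from 8.41, 8.29 and 8.34 to 7.74, 7.32 and 7.60 log2 CPM, and replicate 8 lay farther from the controls than replicate 6. Of the 7 sirtuin genes, which encode NAD-dependent deacylases, 0 rose and 0 fell, with log2 differences of -0.63 to 0.30. Of them 4 lay wholly below the controls, beside 16.2% of all tested genes. Without replicate 8, Sirt3 and Sirt5, which encode mitochondrial sirtuins, passed the test, with log2 differences of -0.71 and -0.73 (limma adjusted p = 0.0157 and 0.0268). In that setting 17.5% of all tested genes passed. Sirt2, the most abundant sirtuin RNA by log2 CPM, had a log2 difference of 0.08 ± 0.14 (SE, limma adjusted p = 0.759). The call of Parp1 ended without control replicate 3, 4 or 5 or without replicate 7 (adjusted p up to 0.123). Flrt1 overlaps Macrod1 on the other strand.

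Of 16 tested genes listed for NADPH supply, 3 rose and 1 fell, beside 4.79% and 4.87% of all tested genes. The list also holds Noct and Hddc3, phosphatases that act on NADPH, neither of which passed the test over all 6 libraries (limma adjusted p = 0.0621 and 0.677). Without replicate 8 Noct passed it, with a log2 difference of -0.84 (limma adjusted p = 0.0277), when 17.5% of all tested genes passed. Me1, the cytosolic malic enzyme that makes NADPH, went from 6.65, 6.54 and 6.71 to 7.29, 7.49 and 7.36 log2 CPM (1.67-fold, adjusted p = 0.00438, limma). Both groups were narrow and replicate 8 did not stand apart. G6pdx, which starts the pentose phosphate pathway, rose 1.85-fold (adjusted p = 0.0266). It overlaps Ikbkg and has a near-identical retrogene copy, so its reads are uncertain. Me2, a mitochondrial malic enzyme that works mainly with NAD, rose 1.84-fold (adjusted p = 0.027).

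Aldh1l2, the mitochondrial formyltetrahydrofolate dehydrogenase, fell by 1.99 log2 units (adjusted p = 0.00923), from 2.68, 3.04 and 3.38 to 1.30, 0.56 and 1.28 log2 CPM. It overlaps D10Wsu102e on the other strand. Idh2 and Glud1, the most abundant of the list, had log2 differences of -0.39 ± 0.19 and -0.10 ± 0.14 (SE, adjusted p = 0.222 and 0.707). Without replicate 8, when 17.5% of all tested genes passed, Idh2 passed the test, with a log2 difference of -0.60 (adjusted p = 0.00158). In that setting Me3 and Idh1 passed as well, at -0.51 and -0.64 (limma adjusted p = 0.0156 and 0.0118). Mthfd2 passed in the other direction, at 1.36 (limma adjusted p = 0.00917). The calls of G6pdx and Me2 ended without any 1 of the 3 controls or without replicate 7 (limma adjusted p up to 0.119 and 0.114). That of G6pdx also ended without replicate 6, and that of Aldh1l2 without control replicate 4 or 5 (limma adjusted p up to 0.0747).

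Genes of the shuttles that carry the electrons of cytosolic NADH into mitochondria were listed together with the lactate dehydrogenase genes Ldha, Ldhb and Ldhd, which belong to no shuttle. Of these 13 genes, all tested, 0 rose and 3 fell, beside 4.79% and 4.87% of all tested genes. A lower mean was seen in 11, and 7 lay wholly below the controls, beside 16.2% of all tested genes. The list median was -0.60, -0.56 and -0.15 log2 units from the control mean in replicates 6, 7 and 8. Mdh1, Got1 and Slc25a11, all of the malate-aspartate shuttle, fell by 0.61, 0.51 and 0.50 log2 units (limma, adjusted p = 0.0434, 0.0478 and 0.0472). Mdh1, cytosolic malate dehydrogenase, went from 11.6, 11.7 and 11.8 to 10.9, 11.1 and 11.4 log2 CPM. Mdh2, its mitochondrial partner, had -0.46 ± 0.14 (SE, adjusted p = 0.0572), and without replicate 8 it passed the test at -0.51 (adjusted p = 0.00328). In that setting 17.5% of all tested genes passed. Among the lactate dehydrogenase genes, Ldhb had -0.54 ± 0.17, Ldhd -0.40 ± 0.18 and Ldha -0.10 ± 0.14 (limma adjusted p = 0.0694, 0.174 and 0.715). Ldhb and Ldhd lay wholly below the controls, and without replicate 8 Ldhb passed the test at -0.74 (limma adjusted p = 0.000276). Wdpcp overlaps Mdh1 and Rnf167 overlaps Slc25a11, both on the other strand. The calls of Mdh1, Got1 and Slc25a11 ended without any 1 library other than replicate 8 (adjusted p up to 0.193, 0.191 and 0.184). Beside them, 4 of 10 cardiomyocyte markers fell and 0 rose, with a median log2 difference of -0.65, and their part in the result was not tested.

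Nmrk2 is known as a target of AMPK and PPARα signalling in cardiomyocytes, and genes of both were listed. Of 9 tested AMPK subunits and upstream kinases, 2 rose and 0 fell, beside 4.79% and 4.87% of all tested genes. Prkab2, the β subunit that dominates in muscle, went from 2.85, 3.69 and 3.50 to 5.13, 5.85 and 4.28 log2 CPM (3.34-fold, adjusted p = 0.00916). Its 3 libraries labelled knockout lay above all controls, with replicate 8 nearest to them. Prkag2, the γ subunit whose mutations cause a cardiac storage disease in humans, rose 1.8-fold (limma adjusted p = 0.0281). That call ended without any 1 of the 3 controls or without replicate 7 (limma adjusted p up to 0.12). Stk11, the upstream kinase LKB1, and Prkag1 had log2 differences of -0.10 ± 0.14 and -0.24 ± 0.16 (SE, adjusted p = 0.708 and 0.387).

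Of 7 tested transcription factor and coactivator genes linked to Nmrk2 or to its partners, 0 rose and 2 fell, beside the same shares of all tested genes, 4.79% and 4.87%. Ppara was at 4.99, 5.02 and 4.95 log2 CPM in the controls and at 3.68, 3.98 and 4.24 log2 CPM in replicates 6, 7 and 8 (adjusted p = 0.00838, limma). The call ended without control replicate 4 (adjusted p = 0.0557) and without a trend (0.0592). Ppara RNA was lower in the 3 libraries in which Nmrk2 RNA was higher, and a link between them was not tested. Esrra fell as well (-0.54 log2, limma adjusted p = 0.0462), and Trmt112 overlaps it on the other strand. The call of Esrra was lost without any 1 control or without replicate 7 (limma adjusted p up to 0.184). Srf, the serum response factor gene, had a log2 difference of 0.26 ± 0.13 (SE, adjusted p = 0.237), with the groups apart.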

How the data were processed

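The table deposited by the authors gives log2 CPM for 6 libraries of mouse heart RNA, labelled as RefSeq NM genes of mm10. Per the submitters' processing notes, CASAVA, HISAT2 and edgeR were used, without versions or order. Depth was recovered from the steps of the values above the floor of -3.29. Of 7465 genes with 1 NM transcript, 7455 came out as whole reads in all 6 libraries (tolerance 0.002 reads). Genes with more transcripts held fractions, read here as averages over transcripts. CPM per kilobase used the mean GENCODE M21 length of a gene's NM transcripts.

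The 12516 genes whose mean reached 0 log2 CPM were tested (1617 were left out) with limma 3.58.1 in R 4.3.3, as a group-means model with a trend of variance on level. P-values were two-sided, adjusted by Benjamini-Hochberg over all tested genes, with a threshold of 0.05. Fold changes include the authors' pseudocount, which understates those of low genes. The fit was also run on simulated counts with the same dispersion for all genes and both groups, which does not cover the unequal spread of these groups. A gene is said to rise or fall where it passed that threshold. The labels do not say that replicates were separate animals, so p-values measure the spread between these samples. Intervals of reads are exact Poisson intervals at 95%.

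The 10 genes, the 8 pathway lists and the 8 marker lists were chosen with earlier results of these data known. Named were the 10 genes, list genes past the test, the 2 most abundant genes of each list, Txn1, the 5 genes most like Nmrk2 and the 3 nearest tested genes on each side of Nnt, of which 1 is not reported here. Marker genes, genes that overlap a named gene, Haao, Kynu, Kmo, Ido1, Acmsd, Afmid, Aox2, Aox3, Sirt3, Sirt5, Noct, Hddc3, Me3, Idh1, Mthfd2, Ldha, Ldhb and Ldhd were chosen after their values were seen. Endothelial markers (1 of 10 fell, 0 rose) and smooth muscle markers (2 of 10 rose, 0 fell) were also listed. Alternatives changed the filter, the scaling, the pseudocount, the variance model and the threshold, or left out 1 library.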

Additional observations from a re-analysis of the deposited data

How the results depend on the processing

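The log2 difference of Nmrk2 was 3.78 to 3.997 under another scaling, pseudocount or variance model and 3.55 to 4.53 with 1 library left out. Of 110 recomputed differences of the 10 genes, 0 moved by more than the SD between replicates. With 3 libraries a group, leaving 1 out cannot move a difference that far, so the count says nothing about those settings. Nmrk1 changed sign without control replicate 5 and Nmnat3 without replicate 6. Nnt was past the threshold with library weights and without replicate 8, and Nampt without replicate 8, when 17.5% of all tested genes passed. Replicate 8 was singled out because it lay nearest to the controls in these same genes. Nothing is therefore read from these calls or from those of list genes without replicate 8. The count of genes past the test, 1209, was 121 without a trend, 432 at a threshold of 0.01 and 403 to 2185 with 1 library left out. For the pathway lists the count of 18 was 3, 6 and 4 to 31 in the same settings, and 13 to 25 in the others. The cause was not tested. Of the 18 genes 4 kept their call without any 1 library, and 0 changed direction in any setting. No paired analysis was possible because the groups share no replicate numbers. Depth limits Nmrk1 and Nnmt, which rest on 10 to 85 reads a library.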
